A study of Mus musculus with 77 samples.

Results

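The comparison described here is that of messenger RNAs bound to Argonaute 2 (AGO2) in the BNST, the bed nucleus of the stria terminalis, of stress-resilient mice with those of unstressed controls. The members are the 5 resilient and 5 control pools whose labels give BNST, AGO2 mRNA and these phenotypes, 10 of the 77 samples of the series, and all 16587 genes of their table were compared. All mice were males of the strain labelled C57BL/6Crl (C57BL/6NCrl in the study's methods), an inbred C57BL/6 line, and were 8 weeks old at dissection. Resilient mice had gone through chronic social defeat stress (CSDS), in which a larger CD-1 male attacks the mouse daily and the animals stay in sensory contact for the rest of the day. They were classed as resilient because their approach to an unfamiliar mouse afterwards resembled that of controls. For profiling the study took the resilient mice with the highest social interaction ratios and controls with ratios closest to the mean. Controls were kept in the same kind of divided cage, but their neighbour behind the divider was another control mouse and not an aggressor, and they were never in physical contact. The groups thus shared the type of cage and the behavioural tests, and differed in sensory contact with an aggressor as well as in physical defeat. The tissue was taken 6 to 8 days after the last defeat. Each library came from 3 BNSTs pooled before immunoprecipitation of AGO2, so a value is an average over 3 animals. Defeated mice were chosen by their behaviour and not assigned to a phenotype, and 4 pools of susceptible mice, which avoided the unfamiliar mouse after defeat, enter the fit and serve as a side by side reference.

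AGO2 is the protein that holds a mature microRNA (miRNA) and brings it to mRNAs, which it binds mostly in the 3 prime untranslated region (3 prime UTR) by pairing with the seed near the 5 prime end of the miRNA. Bound mRNAs are usually translated less or degraded sooner. The BNST is a small, mostly GABAergic nucleus of the extended amygdala that sits beside the striatum, the septum and the anterior commissure and is known for its part in sustained anxiety and in the control of stress hormones. An AGO2-bound level rises with the level of the transcript as well as with the share of it that is bound. Total RNA of the same pools was not analysed here, so these cannot be told apart, and neither can fewer cells of a type and less RNA per cell.

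Values are log2 CPM, the reads of a gene scaled to the size of its library, and differences are resilient minus control on that scale with their standard error (SE) and 5 pools in each group. A gene is said to have risen or fallen only where limma, a linear model with moderated variances fitted to all 14 pools, gave an adjusted p under 0.05. A gene is called nominally higher or lower where its unadjusted p was under 0.05 and its levels differed at least 1.2-fold, the criterion of the study. With 5 pools against 5 the exact two-sided permutation test cannot go below 0.00794, the value of any gene whose pools do not overlap. The libraries held 4496314 to 6162932 reads on genes in the controls and 3701281 to 10659882 in the resilient pools, and pools correlated with each other at 0.9395 to 0.977 over genes. Genes such as Rbfox3, Snap25 and Gfap were measured in every pool, and the BNST was dissected as a punch that can hold parts of its neighbours.

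Resilient pool 3 stood apart from the other resilient pools. It was the deepest library, it lay at -34.7 on the first principal component (20.7% of the variance) where the controls lay between -34.9 and -15.6 and the other resilient pools between 7.75 and 52.3, and it got the lowest quality weight of all 14 pools (0.428). It also had the lowest summed level of myelin genes, 2984 CPM, against 4363 to 6218 CPM in the other control and resilient pools and 2986 CPM in susceptible pool 2. Its summed level of striatal genes was the highest (8216 CPM). Its part in the results was read from fits without it, given beside the counts.

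In all, 219 genes rose in resilient pools (1.32% of those tested) and 105 fell (0.633%). The nominal criterion marked 1434 genes as higher (8.65%) and 1500 as lower (9.04%). For 497 genes (3%) all resilient pools lay above all control pools and for 362 genes (2.18%) all lay below, and 271 of these 859 genes had risen or fallen. Without resilient pool 3 the number of genes that rose or fell went from 324 to 1949, with 4309 past the nominal criterion, and the 324 genes were all among them with the same sign. Without any other resilient or control pool it was lower: 74, 47, 216 and 36 genes without resilient pools 1, 2, 4 and 5, and 23, 58, 53, 307 and 59 genes without control pools 1 to 5. A fit with no mean-variance trend called 13 genes, and 2837 by the nominal criterion. The median spread between pools was an SD of 0.225 in controls and 0.296 in resilient pools.

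**Figure D1:**
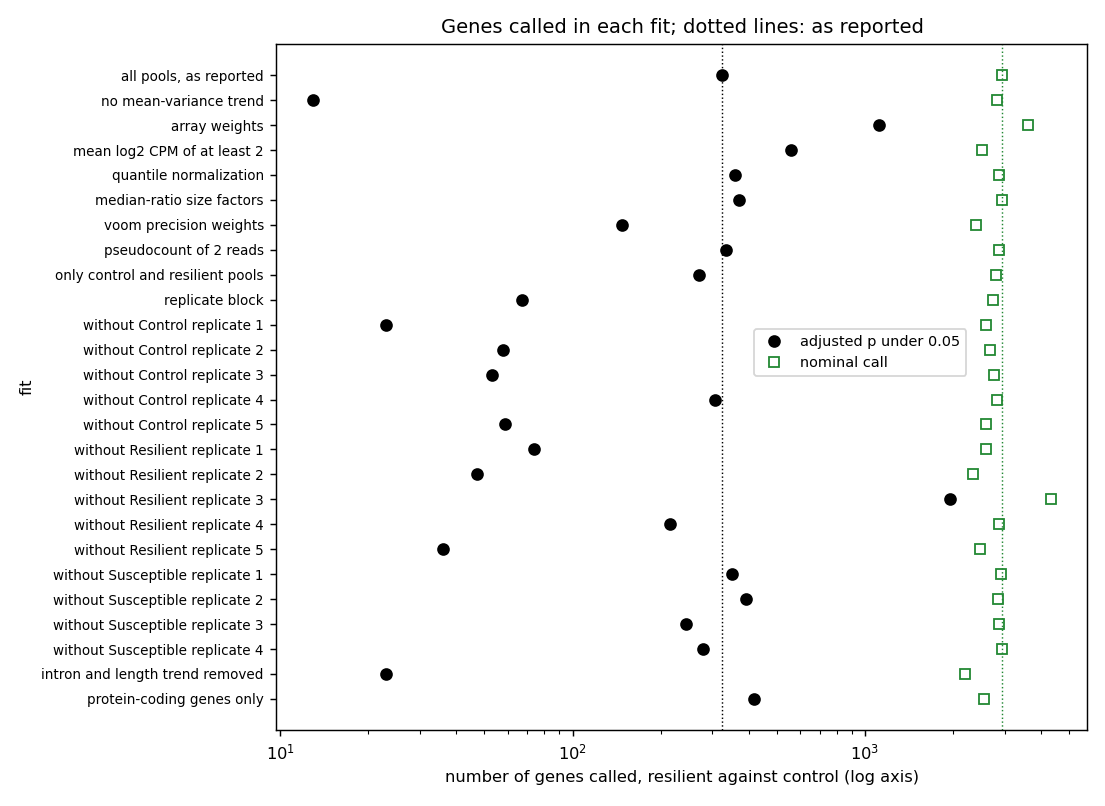
Number of genes past adjusted p under 0.05 (and past the nominal criterion) in resilient against control pools, on a log axis, in the fit reported and in each other fit. The adjusted count ran from 13 to 1949, and the nominal count from 2204 to 4309.

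In 22 genes the adjusted p stayed under 0.05 whichever of the 10 pools was left out, and in all 22 the pools of both groups did not overlap. Of these, 15 that rose and 3 that fell met the rule for named genes, and 4 further genes that rose were beyond its limit of 15. Genes that rose included the semaphorin receptor Plxnb3, the integrin Itga10, the metalloprotease Adam8, the matrix protein Agrn and the NF-kappa B kinase Ikbkb. Genes that fell included the linker histone H1f0 and the neuronal endosomal protein Nsg1.

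Srpk3 (chrX:73774405-73778925 of GRCm38, plus strand), a kinase of SR splicing factors known mainly from muscle, had the largest rise of these. It was at 3.95, 4.26, 3.91, 4.23 and 4.34 log2 CPM in the control pools and at 5.59, 5.95, 4.83, 5.54 and 5.97 in the resilient pools. The lowest resilient pool was pool 3, still above every control, and the difference was 1.44 ± 0.20 (SE; adjusted p = 0.00511, limma). Plxnb3 (chrX:73757090-73772514, plus strand), a plexin that binds semaphorin 5A and is strongly expressed in oligodendrocytes, was at 6.01, 6.33, 6.46, 6.64 and 6.30 in controls and at 7.72, 7.88, 7.24, 7.504 and 7.66 in resilient pools. Again pool 3 was the lowest of the resilient pools and no control reached it (1.26 ± 0.16, adjusted p = 0.00511, limma). The pair are neighbours on the same strand, with 1890 bases between the end of Plxnb3 and the start of Srpk3, and whether reads run on from one to the other was not tested.

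Itga10 (chr3:96645584-96664519, plus strand), the alpha subunit of a collagen-binding integrin, was at 2.51, 3.07, 3.20, 3.35 and 3.28 log2 CPM in controls and at 4.10, 4.12, 4.27, 4.17 and 4.07 in resilient pools. The resilient pools lay within a narrow band above all controls (1.06 ± 0.16, adjusted p = 0.00691, limma). Adam8 (chr7:139978932-139992562, minus strand), a membrane metalloprotease linked to inflammation, was at 2.63, 2.498, 2.28, 2.74 and 2.47 in controls and at 3.28, 3.56, 3.52, 3.93 and 3.44 in resilient pools. The groups did not overlap, and the difference was 1.02 ± 0.17 (adjusted p = 0.0112, limma). Mamdc4 (chr2:25563115-25574845, minus strand), an endosomal membrane glycoprotein, differed by 1.06 ± 0.16 (adjusted p = 0.00795, limma).

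Agrn (chr4:156165290-156197488, minus strand) encodes agrin, a heparan sulfate proteoglycan that clusters receptors at synapses. It was at 7.48, 7.45, 7.504, 7.64 and 7.64 log2 CPM in controls and at 8.23, 8.41, 8.23, 8.12 and 8.23 in resilient pools. All resilient pools were higher, by 0.70 ± 0.11 (adjusted p = 0.0103, limma). Ikbkb (chr8:22659212-22706589, minus strand), the IKK beta kinase that releases NF-kappa B, was at 6.72, 6.80, 6.61, 6.61 and 6.82 in controls and at 7.25, 7.52, 7.15, 7.26 and 7.40 in resilient pools. All resilient pools lay above all controls (0.61 ± 0.09, adjusted p = 0.00511, limma). Traf7 (chr17:24508562-24527938, minus strand), a ubiquitin ligase of the TRAF family, rose by 0.64 ± 0.11 (adjusted p = 0.0112, limma).

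Snapc4 (chr2:26362765-26380653, minus strand), the largest subunit of the complex that starts transcription of small nuclear RNAs, was at 6.29, 6.56, 6.13, 6.45 and 6.55 log2 CPM in controls and at 7.19, 7.17, 7.02, 7.08 and 7.17 in resilient pools. Resilient pools sat close together and above all controls (0.73 ± 0.10, adjusted p = 0.00511, limma). Skiv2l (chr17:34839228-34850210, minus strand), the helicase of the SKI complex that feeds mRNA to the cytoplasmic exosome, was at 6.04, 6.04, 6.16, 6.32 and 6.12 in controls and at 6.66, 6.78, 6.85, 6.57 and 7.02 in resilient pools. There was no overlap (0.64 ± 0.11, adjusted p = 0.0112, limma). The other genes that rose whichever pool was left out were Ssh3, a phosphatase of the actin regulator cofilin (0.73 ± 0.13), Man2c1, a cytosolic mannosidase (0.70 ± 0.11), Ift172, a component of transport in cilia (0.59 ± 0.09), Usp19, a deubiquitinase (0.59 ± 0.10), and E4f1, taken up with the miRNAs below.

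Among the genes that fell, H1f0 (chr15:79028450-79030504, plus strand), the linker histone of cells that no longer divide, was at 5.89, 5.96, 6.15, 5.85 and 5.90 log2 CPM in controls and at 5.22, 5.08, 5.24, 5.29 and 5.25 in resilient pools. Every resilient pool lay more than the range of either group below the controls (-0.73 ± 0.10, adjusted p = 0.00511, limma). Nsg1 (chr5:38137192-38159907, minus strand), an endosomal protein that takes part in recycling of AMPA receptors, was at 6.85, 6.92, 6.89, 7.00 and 7.06 in controls and at 6.44, 6.28, 6.67, 6.38 and 6.32 in resilient pools, with pool 3 nearest to the controls (-0.53 ± 0.09, adjusted p = 0.0134, limma). Susceptible pools, which are set against the same controls, were also away from them for these genes: Srpk3 by 1.27 ± 0.21, Plxnb3 by 1.297 ± 0.17 and H1f0 by -0.58 ± 0.11.

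**Figure D2:**
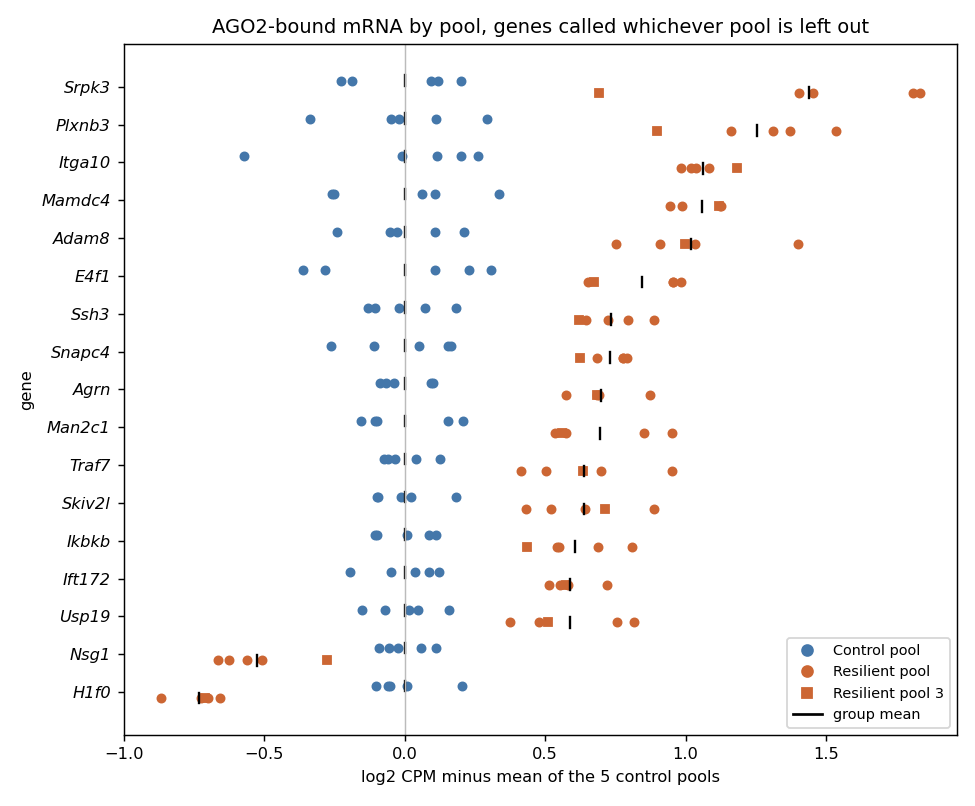
Levels of 17 of the 18 genes under the rule for named genes that rose or fell whichever pool was left out, as log2 CPM minus the mean of the control pools. Each point is a pool, the square is resilient pool 3 and bars are group means, and for each gene the resilient pools lie all above or all below the control pools.

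The largest differences were found in genes of low level, and these held in fewer fits. Of the 10 largest in each direction, only Srpk3 and Plxnb3 kept an adjusted p under 0.05 in all 10 fits that leave out a pool, while the nominal criterion was met in all 10 fits by each of the others. The pseudogene Gm16300 had 1 to 5 reads in the control pools and 4 to 23 in the resilient pools, and its difference of 1.97 ± 0.49 (adjusted p = 0.0475, limma) held only without resilient pool 1 or 3. Snord53, a small nucleolar RNA that guides methylation of ribosomal RNA, had 1 to 4 reads in controls and 4 to 18 in resilient pools (1.85 ± 0.40, adjusted p = 0.031). The call for Snord53 held in 4 of the 10 fits, those without control pools 3 or 4 or resilient pools 3 or 4, with an adjusted p of up to 0.0882 in the rest. At such depth the counting error of a single library is large.

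Better measured among the large differences were genes that fell. Erg, an ETS factor of endothelial cells, was at 4.204, 3.63, 3.49, 3.02 and 3.40 log2 CPM in controls and at 2.26, 2.69, 2.21, 2.87 and 2.10 in resilient pools. The lowest control and the highest resilient pool were close to each other, and the difference was -1.12 ± 0.25 (adjusted p = 0.031, limma). Marcksl1, an actin-binding protein of growing neurites, was at 3.94, 3.92, 3.82, 3.77 and 3.73 in controls and at 2.98, 2.58, 3.38, 3.42 and 1.64 in resilient pools, so that resilient pool 5 gave much of its difference of -1.04 ± 0.25 (adjusted p = 0.045, limma), and the difference was -0.75 in the fit in which it was smallest. Fam174a, a membrane protein, was at 4.68, 4.64, 4.71, 4.52 and 4.63 in controls and at 3.20, 3.67, 4.16, 4.11 and 3.81 in resilient pools (-0.84 ± 0.16, adjusted p = 0.0196, limma). Controls were almost equal and every resilient pool lower. The call was kept without control pool 4 or resilient pool 3 for Erg, which also kept it without resilient pool 4. Marcksl1 kept it without resilient pool 3 or 4 alone, and Fam174a kept it in 6 fits, all but those without control pools 1 or 3 or resilient pools 2 or 5. The other genes with large differences that rose were Gm20219 (1.48 ± 0.32), Doc2g (1.28 ± 0.28), Fgd2 (1.202 ± 0.30), Vsig2 (1.196 ± 0.26), Nek8 (1.08 ± 0.27) and Tbx6 (1.07 ± 0.24). Those that fell were Slc35e4 (-1.06 ± 0.22), Lyrm4 (-0.95 ± 0.22), Ndnf (-0.92 ± 0.23), Atp6v1g1 (-0.92 ± 0.19) and Nat14 (-0.90 ± 0.19), and the histone genes Hist1h1c and H2afx described with their list.

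Genes that rose and genes that fell differed in structure. The 203 protein-coding genes that rose had a median of 20 introns and a 3 prime UTR of 561 bases in GENCODE M21, and the 104 that fell had a median of 3 introns and 1855 bases, against 8 introns and 1251 bases over all 13938 protein-coding genes. When these genes were split into quintiles by their number of introns (medians of 2, 5, 8, 13 and 22), 1, 4, 15, 51 and 132 genes rose and 55, 25, 12, 7 and 4 fell. The median difference went with it from -0.245 in the quintile with fewest introns through -0.129, -0.021 and 0.0468 to 0.128 in the quintile with most. Among the 515 genes of many introns and short 3 prime UTR, 51 rose and 0 fell by limma (median 0.269), and among the 566 of many introns and long 3 prime UTR 9 rose and 3 fell (median 0.0662). With few introns, 0 rose and 3 fell of 562 genes of short 3 prime UTR (median -0.235) and 0 rose and 10 fell of 538 of long 3 prime UTR (median -0.195). GC content went with the calls as well: from the quintile of lowest to that of highest GC content 1, 11, 22, 71 and 98 genes rose and 28, 20, 23, 18 and 14 fell. So did the level: from the quintile of lowest to that of highest mean log2 CPM 8, 13, 25, 64 and 93 rose and 2, 21, 25, 30 and 26 fell. The number of introns was looked at after the data had been seen.

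The same measure was taken in each pool, as the median over the quintile with most introns minus that over the quintile with fewest, each gene relative to its mean over all pools. It was -0.183, -0.216, -0.29, -0.235 and -0.269 in the control pools and 0.112, 0.33, -0.0837, 0.115 and 0.142 in the resilient pools. Resilient pool 3 was the only resilient pool below 0, and it was still above every control. In susceptible pools it was -0.0392, 0.225, 0.116 and 0.154. Taken by GC content, the measure did not separate the groups. By GC content it was -0.268, -0.331, 0.0674, 0.235 and -0.0025 in the control pools and 0.128, -0.104, 0.255, -0.225 and 0.0964 in the resilient pools. When a smooth trend with intron number and transcript length was taken out of each pool, 21 genes rose and 2 fell, with 2204 past the nominal criterion. Of the 18 genes under this rule that held whichever pool was left out, 11 kept an adjusted p under 0.05 after this by limma, among them Srpk3 (1.27, adjusted p = 0.0145), Plxnb3 (1.08, 0.0145), Snapc4 (0.59, 0.0265), E4f1 (0.76, 0.0371) and H1f0 (-0.73, 0.0371). The other 7, such as Ift172 (0.31, 0.0719) and Nsg1 (-0.37, 0.061), did not. The part of intron number in single results was not tested beyond this.

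**Figure D3:**
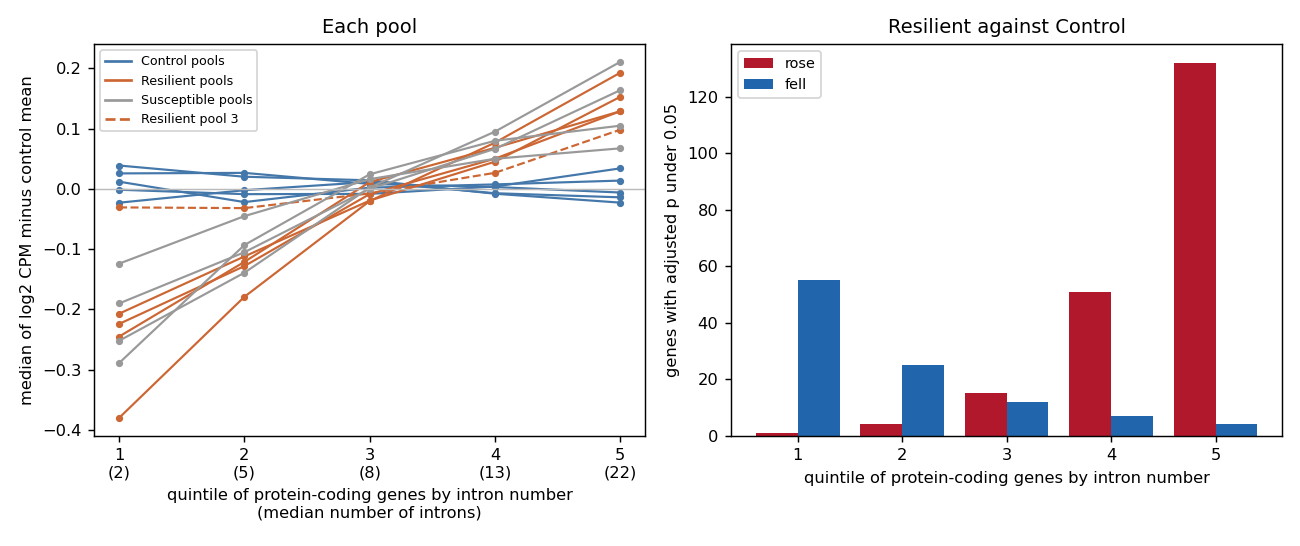
Left, median deviation from the control mean (log2) of protein-coding genes in quintiles by number of introns, one line for each pool, with resilient pool 3 dashed. Right, number of genes that rose and fell in each quintile, from 1 risen and 55 fallen in the quintile with fewest introns to 132 risen and 4 fallen in the quintile with most.

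Some gene types that are not protein-coding were more often nominally higher than nominally lower. Of 849 genes of the class TEC, whose existence still has to be shown by experiment, 141 were nominally higher and 26 nominally lower, and their median difference was 0.234. Of 130 miRNA genes, measured here as longer transcripts and not as mature miRNAs, 27 were nominally higher and 3 lower (median 0.394). Of 108 transcripts that lie in the sense direction within introns, 20 were nominally higher and 2 lower (median 0.268). The same measures over all genes were 8.65% nominally higher, 9.04% lower and a median of -0.02077. Transcripts within introns can share reads with their host gene, and the strand setting of the counting was not given in the sources used here.

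Plexins, the receptors of semaphorins, rose as 3 of 11 measured receptors, while no semaphorin or other ligand passed the adjusted threshold. Over all genes 1.32% rose. Of the whole list of 31 genes 25.8% were nominally higher, against 8.65% over all genes. Semaphorins and plexins guide axons and later shape synapses and the processes of oligodendrocytes. Plxna3, on the X chromosome, was at 5.401, 5.78, 5.55, 5.20 and 5.47 log2 CPM in controls and at 6.28, 6.48, 6.14, 6.21 and 6.21 in resilient pools. There was no overlap (0.79 ± 0.14, adjusted p = 0.0134, limma), and the call held in all fits but that without control pool 1 (0.0547). Plxnb1, the receptor of semaphorin 4D, was at 6.03, 6.06, 6.06, 6.31 and 6.07 in controls and at 6.91, 6.93, 6.79, 6.59 and 6.78 in resilient pools, again without overlap (0.70 ± 0.13, adjusted p = 0.0167, limma), and lost its call without control pool 1 or resilient pools 2 or 5 (highest adjusted p 0.058). Plxnb2 was nominally higher (0.33). Of 20 ligands 4 were nominally higher, Sema4g (0.42), Sema5b (0.40), Sema4a (0.30) and Sema4c (0.30). Sema4c was at 5.78, 5.81, 5.96, 6.04 and 5.99 in controls and at 6.21, 6.201, 6.16, 6.07 and 6.44 in resilient pools, whose lowest value was just above the highest control. The median over the 31 genes of the list was 0.01111, so the members that rose stood beside others near or below 0 (-0.3988 at the lowest). The list had a median of 17 introns per gene. With the intron trend removed 4 members were nominally higher and none lower, and the median was -0.02352. Plxnb3 (adjusted p = 0.0145, limma) and Plxna3 (0.0453) then kept the call, and Plxnb1 (0.061) did not. Of the other axon guidance genes (34 measured), 1 was nominally higher (2.94%, against 8.65% over all genes) and 3 nominally lower (8.82%, against 9.04%). The ephrin receptor Epha10 (0.35) was higher, and the ephrins Efnb1 (-0.46) and Efna3 (-0.30) and the receptor Epha6 (-0.40) were lower. Each lost this status in 3 to 6 of the 10 fits. Over this list the number past the criterion was 1 without resilient pool 2 and 6 without control pool 3.

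Of the 21 genes of the Argonaute and miRNA processing machinery, 19 had a positive difference, 3 rose and none fell. The median was 0.1745 against -0.02077 over all genes. Over all genes 1.32% rose and 8.65% were nominally higher, against 23.8% of this list nominally higher. Dicer1, the nuclease that cuts miRNA precursors, was at 8.48, 8.49, 8.35, 8.45 and 8.40 log2 CPM in controls and at 8.77, 8.76, 8.65, 8.83 and 9.01 in resilient pools. The groups did not overlap and the difference was 0.37 ± 0.08 (adjusted p = 0.0292, limma), kept only in the fits without control pool 4 or resilient pool 3 (up to 0.0813 in the others). Zswim8, the ubiquitin ligase subunit of target-directed miRNA degradation, was at 7.23, 7.36, 7.38, 7.55 and 7.52 in controls and at 7.93, 8.01, 7.91, 7.85 and 8.15 in resilient pools. It did not overlap either (0.56 ± 0.10, adjusted p = 0.0152, limma), and its call was lost without control pool 1 or resilient pool 5 (up to 0.058). Lin28b, which blocks maturation of let-7, was at 5.69, 5.48, 5.26, 5.15 and 5.08 in controls and at 5.70, 5.78, 5.61, 6.08 and 6.09 in resilient pools. Here resilient pool 3 lay among the controls, and the rise of 0.52 ± 0.13 (adjusted p = 0.0473, limma) kept its call only without that pool (0.013). Ago4 (0.28) and Tnrc6a (0.29) were nominally higher, and Ran, the GTPase of nuclear export, was nominally lower (-0.34), and 4 members passed the criterion when resilient pool 5 was left out and 9 when pool 3 was. This list had a median of 18 introns per gene, and with the intron trend removed its median was 0.136 with 4 members nominally higher and none lower.

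Of 8 histone genes 3 fell and 5 were nominally lower, while of the chromatin enzymes and remodellers of the list 1 rose and none fell. Over all genes 0.633% fell and 9.04% were nominally lower. Hist1h1c, a linker histone, was at 3.79, 3.72, 4.17, 4.25 and 4.00 log2 CPM in controls and at 2.88, 2.79, 3.57, 3.21 and 2.80 in resilient pools. The highest resilient pool, pool 3, was just below the lowest control (-0.93 ± 0.18, adjusted p = 0.0213, limma), and the call was kept in 4 of the 10 fits, without control pools 2 or 4 or resilient pools 3 or 4. H2afx, the histone variant that marks DNA breaks, was at 4.40, 4.07, 4.63, 5.05 and 4.55 in controls and at 3.79, 3.11, 3.87, 3.66 and 3.93 in resilient pools (-0.87 ± 0.20, adjusted p = 0.0383, limma), with no overlap and with the call kept only without control pool 2 or resilient pool 3. Hist1h2bc (-0.90) and H3f3b (-0.31) were nominally lower. Kmt2b, a histone H3 lysine methyltransferase, was at 7.93, 7.89, 8.00, 8.28 and 8.02 in controls and at 8.55, 8.54, 8.56, 8.35 and 8.76 in resilient pools. It rose by 0.53 ± 0.10 (adjusted p = 0.0164, limma), without overlap, and lost its call without control pools 1 or 2 or resilient pool 5 (up to 0.058). Kdm6b (0.34), Kmt2a (0.29), Hdac5 (0.46), Tet2 (0.28) and Chd7 (0.31) were nominally higher, while 1 of the 9 genes of the list's methylation group was nominally lower. Over the whole list of 50 genes 6 were nominally higher and 6 nominally lower. This is 12% each way, not far from the 8.65% and 9.04% over all genes. The number past the criterion was 8 without resilient pool 1 and 19 without resilient pool 3. With the intron trend removed the whole list had 3 members nominally higher, 4 nominally lower and a median of -0.0134. The 4 lower members were histones, and the median of the 8 histone genes was -0.4577, against -0.5193 before.

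Myelin and oligodendrocyte genes were mostly lower. Of 24 genes 2 fell and none rose, and the median was -0.2682. Nominally lower were 10 (41.7%, against 9.04% over all genes) and nominally higher 3 (12.5%, against 8.65%). Mal, a proteolipid of myelin membranes, was at 7.20, 7.33, 7.36, 7.19 and 7.06 log2 CPM in controls and at 6.85, 6.63, 6.50, 6.67 and 6.95 in resilient pools. No pools overlapped (-0.51 ± 0.11, adjusted p = 0.0339, limma). Ermn, a cytoskeletal protein of mature oligodendrocytes, was at 6.32, 6.52, 6.35, 6.04 and 6.08 in controls and at 5.97, 5.92, 5.62, 5.78 and 5.57 in resilient pools (-0.49 ± 0.12, adjusted p = 0.0383, limma). The groups did not overlap but came close. Both genes kept the call only without control pool 4 or resilient pool 3. The oligodendrocyte factors Sox10 (-0.56), Olig1 (-0.46), Olig2 (-0.40) and Nkx2-2 (-0.62) were nominally lower. Mag, an adhesion protein of the inner myelin membrane, was nominally higher (0.49) as were the enzyme Aspa (0.59) and the factor Myrf (0.35). Resilient pool 3 had the lowest summed level of this list, and without it 6 members were nominally lower, 4 nominally higher, 3 rose, 3 fell and the median was -0.2195. With the intron trend removed the counts were 4 nominally lower and 3 nominally higher.

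Of the 8 measured neurotrophin and Trk receptor genes 2 fell, Ntrk2 and Ntrk3, the receptors of BDNF and of neurotrophin 3. Over all genes 0.633% fell. Ntrk2 was at 8.85, 8.79, 8.86, 8.72 and 8.72 log2 CPM in controls and at 8.59, 8.39, 8.49, 8.42 and 8.33 in resilient pools. The groups did not overlap, and the difference was -0.34 ± 0.08 (adjusted p = 0.0434, limma). Ntrk3 was at 8.19, 7.94, 7.70, 7.94 and 7.99 in controls and at 7.40, 7.11, 7.91, 7.47 and 7.12 in resilient pools. Its resilient pool 3 lay among the controls and the others below them (-0.55 ± 0.14, adjusted p = 0.0473, limma). Both kept the call only without resilient pool 3 (0.0174 and 0.00361), and both met the nominal criterion in all 10 fits. With the intron trend removed the differences were -0.35 and -0.53. Ntrk2 and Ntrk3 have truncated isoforms without the kinase domain, which gene counts cannot separate.

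Of 40 glutamate receptor and scaffold genes 1 fell and none rose by limma. Grin2b, the NMDA receptor subunit of young and extrasynaptic receptors, was at 9.57, 9.30, 9.43, 9.39 and 9.37 log2 CPM in controls and at 8.97, 8.87, 9.14, 9.04 and 8.93 in resilient pools. All resilient pools lay below all controls (-0.42 ± 0.09, adjusted p = 0.0284, limma), and the call was kept without control pool 4 or resilient pools 3 or 4 (up to 0.0882 otherwise). Of the 40 genes 5 were nominally lower (12.5%, against 9.04% over all genes), among them Grin2a (-0.36), the metabotropic receptors Grm5 (-0.43) and Grm3 (-0.37) and the scaffold Homer1 (-0.51), and 1 nominally higher, the kainate receptor Grik1 (0.58). The median over the list was -0.1417, with 25 genes lower and 15 higher in sign. The number past the criterion was 5 without control pool 5 and 11 without resilient pool 3.

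Of 25 GABA genes none rose or fell by limma, 7 were nominally lower (28%, against 9.04% over all genes) and none higher. The median was -0.1626. The number past the criterion was 4 without control pool 2 and 8 without control pool 3. Nlgn2, the adhesion protein of inhibitory synapses, was at 7.74, 7.87, 8.02, 8.28 and 7.95 log2 CPM in controls and at 7.57, 7.70, 7.63, 7.36 and 7.66 in resilient pools. The groups did not overlap, and it had a difference of -0.39 ± 0.12 (adjusted p = 0.0803, limma). Gabrb1 (-0.46), Gabra2 (-0.42) and Gabrb2 (-0.27), subunits of GABA-A receptors, were nominally lower too.

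Of 35 genes of synaptic vesicles and release, 9 were nominally lower (25.7%) and 2 nominally higher (5.71%), with a median of -0.1575. Over all genes these shares were 9.04% and 8.65%. No member passed the adjusted threshold, and 8 to 14 members were past the nominal criterion when pools were left out. Syn1, a vesicle tether, was at 6.71, 6.59, 7.06, 7.06 and 6.86 in controls and at 6.44, 6.09, 6.58, 6.22 and 6.33 in resilient pools. The groups did not overlap (-0.52 ± 0.14, adjusted p = 0.0517, limma). Cplx2, a clamp of SNARE fusion, differed by -0.60 ± 0.18 (adjusted p = 0.0864), and the priming factors Unc13a (0.37) and Unc13b (0.45) were the 2 that were nominally higher. Of 31 potassium channel genes 1 fell, Kcnk2, a two-pore channel opened by stretch and lipids, which was at 6.64, 6.17, 6.72, 6.86 and 7.00 in controls and at 5.77, 5.41, 6.37, 5.79 and 6.09 in resilient pools. Resilient pool 3 overlapped the controls (-0.79 ± 0.19, adjusted p = 0.0383, limma), and the call was kept only without control pool 2 or resilient pool 3. Kcnk1, Kcnd2 and Kcna3 were nominally lower (-0.31, -0.35 and -0.49) and no channel was nominally higher, so that 12.9% of the list were nominally lower against 9.04% over all genes. Kcnd2 lost this status in 6 of the 10 fits and Kcna3 in 7, and the number of channels past the criterion was 1 without resilient pool 2 and 9 without resilient pool 3. With the intron trend removed 1 channel was nominally lower.

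All 6 measured genes of calcineurin, the calcium-dependent phosphatase, and its regulators had a negative difference, and 3 were nominally lower, the subunits Ppp3r1 and Ppp3ca and the inhibitor Rcan1. Ppp3r1, the regulatory subunit, was at 7.63, 7.63, 7.32, 7.44 and 7.46 log2 CPM in controls and at 6.69, 6.76, 7.37, 7.16 and 7.00 in resilient pools. Resilient pool 3 lay within the control range (-0.50 ± 0.14, adjusted p = 0.0577, limma), and without it the adjusted p was 0.0102. Ppp3ca, a catalytic subunit, was at 9.51, 9.37, 9.23, 9.98 and 9.40 in controls and at 8.79, 8.61, 9.11, 9.09 and 9.30 in resilient pools, with resilient pool 5 reaching the lowest control (-0.52 ± 0.19, adjusted p = 0.136, limma). Rcan1 (-0.44) and the kinase Camk2a (-0.30) were nominally lower in 7 of the 10 fits, and Calm2 (-0.30) was nominally lower. Over all 31 genes of the list 5 were nominally lower (16.1%, against 9.04% over all genes) and 1, Camk1 (0.30), nominally higher (median -0.07195). Without resilient pool 3 these were 9 and 1, with 4 that fell and 1 that rose. Without resilient pool 1 the number past the criterion was 3.

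Among genes of stress hormone signalling, both corticosteroid receptors were nominally lower and none of the 20 genes rose or fell by limma. Nr3c1, the glucocorticoid receptor, was at 7.70, 7.66, 7.60, 7.59 and 7.42 log2 CPM in controls and at 7.17, 7.32, 7.38, 7.41 and 7.24 in resilient pools. The highest resilient pool was just under the lowest control (-0.29 ± 0.09, adjusted p = 0.0966, limma). Without control pool 1 or resilient pool 1 it no longer met the nominal criterion, with differences of -0.33 to -0.26 over all fits. Nr3c2, the mineralocorticoid receptor, differed by -0.34 ± 0.14 (adjusted p = 0.185) and met the criterion in 5 of the 10 fits. The receptor Vipr2 was nominally higher (0.64 ± 0.23) and the glucocorticoid-induced Tsc22d3 nominally lower (-0.43 ± 0.14). Of the list 3 genes were nominally lower (15%, against 9.04% over all genes), and the median was -0.1164. The number past the criterion was 2 without control pool 1. With the intron trend removed no gene of the list was nominally lower, and Nr3c1 differed by -0.21 (adjusted p = 0.218, limma).

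BNST neuropeptides and their receptors were lower in 25 of 31 genes, with none that rose or fell by limma and a median of -0.301. Of the 31 genes 8 were nominally lower (25.8%, against 9.04% over all genes) and 1 nominally higher. Sst, the peptide somatostatin, was at 4.38, 4.54, 4.72, 4.46 and 4.81 log2 CPM in controls and at 4.58, 4.54, 3.84, 3.93 and 3.99 in resilient pools. Resilient pools 1 and 2 lay within the control range (-0.41 ± 0.17, adjusted p = 0.177, limma). Npy (-0.61), Npy2r (-0.61), the substance P receptor Tacr1 (-0.69), the kappa opioid receptor Oprk1 (-0.34) and the granins Chgb (-0.30) and Scg2 (-0.41) were nominally lower, and Prkcd, a kinase that marks a class of neurons of the extended amygdala, nominally higher (0.64). The number of members past the criterion was 1 when control pool 5 was left out and 15 when resilient pool 3 was, and with the intron trend removed it was 2. Dopamine and striatal genes were lower in 20 of 21, with 7 nominally lower (33.3%) and a median of -0.4113. The number past the criterion was 1 when resilient pool 2 was left out and 13 when pool 3 was. With the intron trend removed it was 3. Foxp1, a factor of striatal projection neurons, was at 9.12, 9.001, 8.80, 9.41 and 9.09 in controls and at 8.31, 7.73, 8.76, 8.51 and 9.01 in resilient pools. Resilient pool 5 reached the controls and pool 3 came near (-0.62 ± 0.21, adjusted p = 0.114, limma). The receptor Adora2a (-1.01), the G protein Gnal (-0.42) and the factors Bcl11b (-0.58) and Meis2 (-0.47) were nominally lower. Summed over the list the level was 5049 to 8055 CPM in controls and 2852 to 8216 CPM in resilient pools. How much striatum each punch held was not tested.

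Of 23 immediate early genes 1 fell. Jund, an AP-1 factor, was at 4.49, 4.54, 5.17, 5.41 and 5.08 log2 CPM in controls and at 4.34, 3.67, 4.16, 4.07 and 4.28 in resilient pools. There was no overlap (-0.83 ± 0.21, adjusted p = 0.0461, limma), and the call was kept only without resilient pool 3. Jun (-0.44), Ier5 (-0.72) and Gadd45b (-0.54) were nominally lower and none higher (median -0.2542, and -0.04227 with the intron trend removed). With Jund, 17.4% of the list was nominally lower, against 9.04% over all genes. Ier5 lost this status in 5 of the 10 fits and Gadd45b in 7, and the number past the criterion was 2 without control pool 1 and 10 without resilient pool 3. In the insulin and IGF list of 25 genes Tsc2, a brake on mTORC1, was at 6.76, 6.67, 6.64, 6.91 and 6.92 in controls and at 7.17, 7.13, 7.47, 7.17 and 7.24 in resilient pools. It rose by 0.46 ± 0.10 without overlap (adjusted p = 0.031, limma), a call kept without control pool 4 or resilient pools 3 or 4. Irs1 was nominally higher (0.33), and Foxo1 (-0.72) and the binding proteins Igfbp4 (-0.71), Igfbp5 (-0.27) and Igfbp6 (-1.90) nominally lower. Of this list 8% were nominally higher and 16% nominally lower, against 8.65% and 9.04% over all genes. Of 26 cholesterol genes 1 rose, Lrp1, an endocytic receptor of apolipoprotein E, which was at 8.12, 8.11, 8.29, 8.47 and 8.27 in controls and at 8.67, 8.74, 8.97, 8.55 and 8.84 in resilient pools (0.50 ± 0.12, adjusted p = 0.0422, limma). Its lowest resilient pool was just above the highest control, and its call was kept in the same 3 fits as that of Tsc2. Of the cholesterol list 7.69% were nominally higher and 3.85% nominally lower, both below the shares over all genes.

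None of the remaining lists had a member that rose or fell by limma. Of the 25 Notch genes 4 were nominally lower (16%, against 9.04% over all genes). These were the ligand Jag1 (-0.49), the protease Adam10 (-0.29) and the targets Hey1 (-0.33) and Nrarp (-0.36). All 6 measured targets had a negative difference. Jag1 lost this status in 6 of the 10 fits, and the number past the criterion was 1 without resilient pool 2 and 7 without resilient pool 3. Cytosolic ribosomal protein genes were lower in 73 of 78, with 6 nominally lower (7.69%, against 9.04% over all genes), none higher and a median of -0.159. Their number was 4 without control pool 2 and 16 without resilient pool 3. Genes of respiratory complex I were lower in 26 of 36 (3 nominally lower, 8.33% of them, among them Ndufv3, -0.55). Those of complexes II to V were lower in 29 of 38 (6 nominally lower, 15.8% of them, among them Cox8a, -0.74, and Cox5a, -0.40). For complex I the number past the criterion was 1 without control pool 3 and 8 without resilient pool 3. The 7 measured mitochondrially encoded transcripts had a median of 0.02865 and none was nominally higher or lower. With the intron trend removed the medians were -0.1092 for ribosomal protein genes, -0.08759 for complex I and -0.1012 for complexes II to V.

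**Figure D4:**
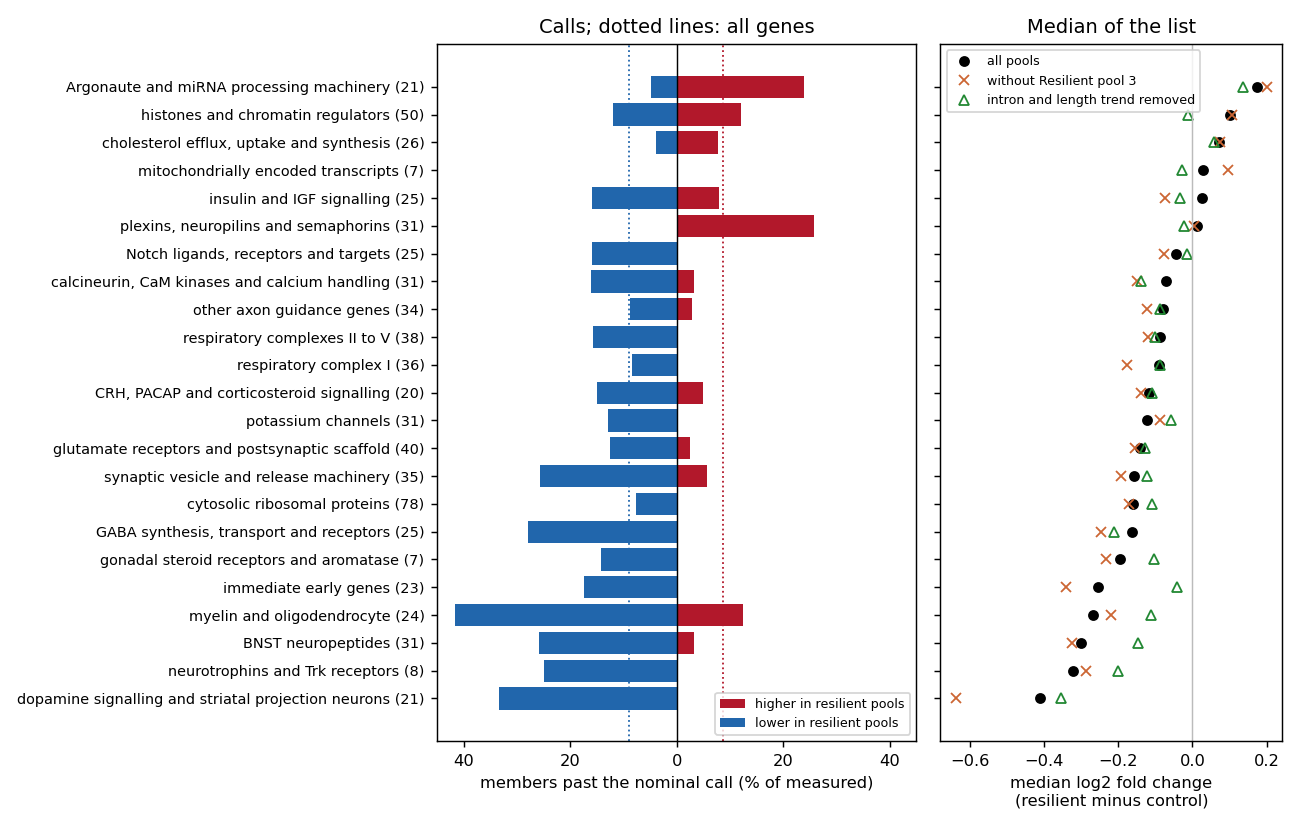
Left, percentage of measured members of each gene list past the nominal criterion, higher and lower, with dotted lines at the values over all genes (8.65% and 9.04%). Right, median log2 difference of each list in all pools, without resilient pool 3 and with the trend with intron number removed. Most lists of neuronal genes had medians below 0 in all 3 versions, and the list of miRNA machinery lay above 0 in all 3.

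Markers of other cells and regions moved with the groups in places. Over all genes 8.65% were nominally higher and 9.04% nominally lower, and a call in 1 member of 9 or 10 is near these shares. Ependymal markers, of the cells that line the ventricle beside the BNST, summed to 47.36, 33.60, 27.51, 35.61 and 23.75 CPM in controls and to 32.96, 16.66, 22.03, 21.16 and 14.96 CPM in resilient pools. Resilient pool 1 lay among the controls and the others below them. 4 of the 5 measured were nominally lower, Foxj1, Ccdc153, Tmem212 and Cfap126, and the other 3 of the list were not measured. Choroid plexus markers summed to 82.6 to 279.4 CPM in controls and 70.81 to 204.5 CPM in resilient pools, with 2 of 10 nominally lower. Neuron markers summed to 2949 to 3306 CPM in controls and 2638 to 2962 CPM in resilient pools. Of these 2 of 9 were nominally lower (22.2%), Rbfox3 (-0.35) and Nefl (-0.29). Astrocyte markers summed to 1720 to 1976 and 1570 to 1795 CPM, with 1 of 9 nominally lower (11.1%, Sox9, -0.49). Sums of markers of microglia (169.8 to 204.6 and 172.9 to 215.1 CPM), endothelium (193.6 to 221.5 and 176.8 to 212.7 CPM) and cortical excitatory neurons (73.5 to 135.5 and 98.22 to 152.1 CPM) overlapped widely. Single members passed the nominal criterion, at 10% of the list in each direction for microglia and 10% lower for endothelium. These were the microglial receptors P2ry12 (-0.54) and Csf1r (0.38) and the tight junction gene Ocln of endothelium (-0.88). The sums overlapped too for pericytes (131.6 to 153.2 and 105.9 to 154.3 CPM, with Rgs5 nominally lower), erythroid cells (14.3 to 18.73 and 9.607 to 20.89 CPM, with both alpha globins nominally lower) and meninges (440.9 to 657.5 and 344.4 to 584.8 CPM, with Dcn nominally lower). Cholinergic markers summed to 77.89 to 93.74 CPM in controls and 93.16 to 119.1 CPM in resilient pools, with Ache nominally higher. Of these 4 markers 2 were higher and 2 lower in sign (median -0.08667, lowest -0.95). Of the control and resilient pools, resilient pool 3 had the lowest sums of thalamic and septal factors (224.5 and 148.8 CPM, against 291.7 to 677 and 244.3 to 375.2 CPM in controls). Susceptible pool 2 was at 224.3 and 155.3 CPM. The thalamic factor Tcf7l2 was nominally lower in resilient pools (-0.67). The part of these cells and regions in the differences of single genes was not tested.

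**Figure D5:**
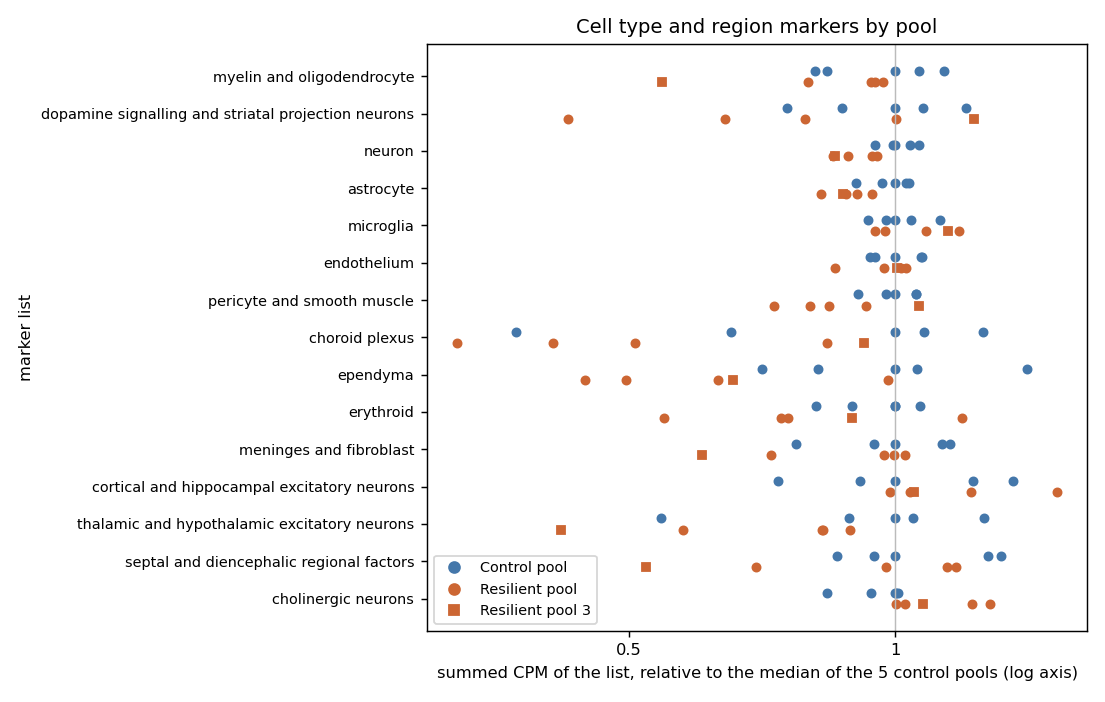
Summed level (CPM) of each marker list in each pool, divided by the median of the control pools, on a log axis. Over the control and resilient pools choroid plexus markers ran from 70.81 to 279.4 CPM and neuron markers from 2638 to 3306 CPM.

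AGO2 libraries of small RNAs were made from BNST pools of the same groups, and in them 2 of 788 miRNAs (0.254%) fell in resilient pools and none rose by limma. They are let-7d-3p, the passenger-side product of a let-7 gene, and miR-485-3p, from the imprinted miRNA cluster of chromosome 12. Their mature sequences (RefSeq, GRCm38.p6) are shown because they set which mRNAs could pair with them, with the seed, bases 2 to 8, in capitals. They lie at chr13:48536024-48536045 on the minus strand and at chr12:109734946-109734967 on the plus strand.
let-7d-3p: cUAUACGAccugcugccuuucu
miR-485-3p: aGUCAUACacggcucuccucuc

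In the control pools let-7d-3p was at 12.67, 12.77, 12.82, 12.69 and 12.75 log2 CPM of miRNA reads and in the resilient pools at 11.99, 12.15, 12.22, 12.29 and 12.19. All resilient pools were lower than all controls (-0.57 ± 0.08, adjusted p = 0.000892, limma). For miR-485-3p the controls were at 12.15, 12.14, 12.01, 12.15 and 12.40 and the resilient pools at 11.15, 11.31, 11.65, 11.42 and 11.12, with no overlap and resilient pool 3 the highest of its group (-0.84 ± 0.12, adjusted p = 0.000892, limma). Without a pool, 2 to 5 miRNAs passed, with 5 without resilient pool 3 and 3 without control pool 5. Susceptible miRNA pools were at 12.34 to 12.61 for let-7d-3p and at 11.73 to 12.25 for miR-485-3p. The study adjusted its miRNA data for detected surrogate variables, which was not done here. It lists miR-15b as higher in resilient mice with an adjusted p under 0.05, and miR-126a and miR-34c as nominal. Here miR-15b-5p (0.47 ± 0.20, adjusted p = 0.325, limma), miR-126a-3p (0.32 ± 0.12) and miR-34c-5p (-0.59 ± 0.42) did not pass.

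Genes with a seed match were then described in the AGO2 mRNA table. A match was the letters TCGTATA for let-7d-3p or GTATGAC for miR-485-3p on the sense strand of the longest annotated 3 prime UTR. Of the 13866 genes with such a UTR, 162 held a match for let-7d-3p, of which 1 rose and 5 fell, and 652 one for miR-485-3p, of which 1 rose and 5 fell. Over all genes with a UTR 203 rose and 103 fell. The median difference was -0.1007 with a let-7d-3p match and -0.0341 without, and -0.0588 and -0.0338 for miR-485-3p. Genes with a match had longer UTRs (medians of 2851 and 2862.5 bases, against 1236 and 1198 without), and longer UTRs went with lower differences over all genes, so length and match cannot be told apart in these medians.

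The 3 genes of smallest p among those with a match are shown with their sites, the match in capitals, on the minus strand of GRCm38 at chr17:24443974-24444000, chr4:109452609-109452635 and chr4:132900726-132900752.
E4f1, let-7d-3p: tacagacggtcaTCGTATAgtttgagg
Rnf11, let-7d-3p: tgttaaattgtcTCGTATAtcttgctt
Fam76a, miR-485-3p: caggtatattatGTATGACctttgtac

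E4f1, a zinc finger protein that acts on p53 and on mitochondrial genes, was at 5.07, 5.14, 5.66, 5.74 and 5.53 log2 CPM in controls and at 6.38, 6.41, 6.10, 6.08 and 6.38 in resilient pools. It rose without overlap, by 0.84 ± 0.13 (adjusted p = 0.0102, limma), and did so whichever pool was left out. Rnf11, a small ubiquitin ligase subunit of the A20 complex, was at 6.12, 6.36, 6.33, 6.08 and 6.18 in controls and at 5.45, 5.60, 5.95, 5.83 and 5.43 in resilient pools. It fell, with resilient pool 3 nearest to the controls (-0.56 ± 0.11, adjusted p = 0.0196, limma), and kept its call without control pools 4 or 5 or resilient pools 3 or 4. Fam76a was at 5.65, 5.53, 5.66, 5.57 and 5.66 in controls and at 5.01, 5.14, 5.404, 5.21 and 5.07 in resilient pools. All were lower than the controls (-0.45 ± 0.09, adjusted p = 0.0255, limma), with the call kept without control pool 4 or resilient pools 3 or 4. The genes with a let-7d-3p site thus went in both directions. Whether these sites are bound was not tested.

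No gene differed between susceptible and resilient pools by limma (0 past adjusted p under 0.05, 401 with an unadjusted p under 0.05, and an adjusted p of 1 for each named gene). The differences from control given above are thus not shown to belong to resilience. Values of both phenotypes, with the same controls behind them, are given for 5 genes chosen after their values were seen. Plxna3 was 0.79 ± 0.14 above control in resilient and 1.08 ± 0.14 in susceptible pools. Kcnk2 was -0.79 ± 0.19 and -1.16 ± 0.20 from control. Ppp3ca was -0.52 ± 0.19 and -0.94 ± 0.20. Fam174a was -0.84 ± 0.16 in resilient and -0.30 ± 0.17 in susceptible pools, a difference between them of 0.54 ± 0.17 that did not pass the adjusted threshold either. The ATP synthase gene Atp5g2 was -1.06 ± 0.31 and -0.10 ± 0.33.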

How the data were processed

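BNST tissue was pooled by 3, AGO2 was immunoprecipitated, and stranded mRNA and small RNA libraries were sequenced on single ends. The authors deposited log2 CPM values made with voom of limma after they had aligned reads (STAR, GRCm38), counted them per gene (HTSeq, Ensembl annotation; strand setting not given in the sources used here) and removed genes of low counts, and Bowtie 1.1.1 is among the tools in the submitters' processing notes. All values could be taken back to whole reads within 0.0001 reads. The study adjusted the mRNA data for cohort, which the labels do not give, so no cohort term was used. It adjusted the miRNA data for detected surrogate variables, and no such term was used here.

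The deposited log2 values were fitted with limma 3.58.1 in R 4.3.3 (lmFit, eBayes with trend, two-sided, Benjamini-Hochberg over 16587 genes or 788 miRNAs) over all 14 mRNA pools or 13 miRNA pools, with no further filter. Nothing shows that replicate numbers pair the pools. P-values measure the spread between pools. No columns of other series were used (0). Named genes were those called in the fit and in all 10 fits without 1 pool with no overlap (15 each way), the 10 largest differences each way, up to 4 members of each list by p (or the 2 of highest level where none passed), and the 3 of smallest p with a seed match. Members of the lists named beyond these were chosen after their values were seen. The members and the 23 gene lists and 13 marker lists were chosen with earlier results of these data known. Of 788 list and marker genes 761 were in the table. GENCODE M21 gave positions for 16541 genes. RefSeq held 686 of the 788 miRNAs and 14 of the 16 whose seeds were looked at (miR-34c-5p and miR-30d-5p had none). The trend with intron number and transcript length was a loess fit of span 0.3. The fit was tested on simulated data. Alternatives were other normalizations, weights, filters, pseudocounts, a replicate block and each pool left out. Python 3.11.15 and matplotlib 3.10.9 drew the figures. A few genes that met the rule are not reported here.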

Additional observations from a re-analysis of the deposited data

Results flagged for a closer look

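Of 314 groups of pools of named genes and miRNAs looked at, 8 held a pool far from the others of its group, where chance gives about 1 in 20. Control pool 3 was that pool for 4 genes: Gm16300 (-1.558 log2 CPM, others from -0.5276 to -0.1146), Atp6v1g1 (3.677, others 3.285 to 3.392), Grm5 (7.878, others 8.16 to 8.252) and Ran (6.035, others 5.832 to 5.859). Control pool 4 stood high for Plxnb1 (6.31, others 6.027 to 6.067), control pool 2 low for Slc35e4 (3.323, others 3.776 to 3.887) and control pool 1 low for Atp5g2 (1.761, others 2.27 to 2.446). Resilient pool 3 stood high for Gadd45b (3.076, others 1.906 to 2.199).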

How the results depend on the processing

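The number of genes past the adjusted threshold (324) moved by more than 1.5 times under 14 of 25 alternatives: 13 genes with no mean-variance trend, 1113 with array weights, 560 with a mean log2 CPM of at least 2, 148 with voom precision weights, 67 with the replicate block, 23 with the intron and length trend removed (chosen after seeing the data), and 23 to 1949 when 1 pool was left out. The number past the nominal criterion stayed within 1.5 times in all 25 (2204 to 4309), and calls shared with each alternative had the same sign. For miRNAs the count moved under 1 of 11 alternatives, to 5 without resilient pool 3 (2 to 5 over all pools left out). Of the named genes 4 changed sign, none of them called: mt-Nd2 (-0.05) without control pool 2 (0.04), resilient pool 3 (0.10) or resilient pool 4 (0.05), with -0.1522 to 0.09653 over all pools left out; mt-Cytb (0.06) without resilient pool 5 or with the trend removed (-0.007202), with -0.01983 to 0.1463; Cux2 (0.06) without control pool 5 (-0.06) or resilient pool 2, with -0.1083 to 0.2205; and Six3 (-0.24) without resilient pool 3, with -0.3932 to 0.04718. The cause was not tested. Same-numbered control and resilient pools did not deviate together (correlations 0.00295, 0.117, -0.172, -0.144 and 0.0136), so the replicate block (67 genes, 2737 nominal) rests on a shared number only. Depth limits genes at few reads, such as Snord53 and Gm16300.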

Other observations

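The imprinted cluster from Meg3 to Mirg (chr12:109541001-109749460), which gives rise to many miRNAs from long maternal transcripts, was looked at after its values had been seen. In the AGO2 mRNA libraries 39 of its 40 RNAs had a positive difference (median 0.4657), with 17 nominally higher and none lower. Over all genes 8.65% were nominally higher. Neighbouring RNAs of the cluster share 1 transcript and are not independent. Mirg, the host RNA at its end, was at 9.07, 9.13, 9.04, 8.997 and 9.05 log2 CPM in controls and at 9.62, 9.79, 9.20, 9.51 and 9.83 in resilient pools. It rose by 0.53 ± 0.11 without overlap (adjusted p = 0.0255, limma), and in 3 of the 10 fits without a pool the call was kept. Mir541 (0.80 ± 0.17), Mir453 (0.83 ± 0.20) and Mir376a (0.67 ± 0.15) rose, with the call kept in 3, 1 and 1 of the 10 fits, while Meg3 (0.23 ± 0.11) and Rian (0.07 ± 0.10) did not pass. With the intron trend removed none of these 4 calls was kept, with adjusted p of 0.0632 for Mirg, 0.0913 for Mir541, 0.121 for Mir453 and 0.116 for Mir376a (limma). Among 95 miRNA genes elsewhere 65 had a positive difference (median 0.33), with 11 nominally higher and 3 lower. The 92 mature miRNAs of the cluster in the small RNA libraries did not show this: 46 were higher and 46 lower (median -0.0024), with 7 nominally higher and 3 lower, and miR-485-3p, which lies within Mirg, fell.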
